A study of Mus musculus with 12 samples.

Results

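The subject is the change in gene expression between 3 h and 6 h of activation in mouse T cells held in halofuginone (HF). It was measured on 6 of the 12 arrays of the series, chosen by their titles: 3 arrays of cells with 10 nM HF for 6 h and 3 of cells with 10 nM HF for 3 h. The cells were CD4+ CD25- T cells of C57B/6J mice, helper T cells from which cells with CD25, a chain of the IL-2 receptor, had been removed. All 12 arrays share the same culture, stimulation through CD3 and CD28 with TGFb plus IL-6 to start Th17 differentiation. The other 6 arrays are of cells with 10 nM MAZ1310, described by the submitters as the inactive derivative of HF, again with 3 arrays at 3 h and 3 at 6 h. The labels call the 3 arrays of a group biological replicates without naming the animals or cultures, so each p-value speaks for the scatter among these arrays, which may be technical. There is no unstimulated sample among the arrays used, so a course here runs from 3 h to 6 h and not from rest, and it joins the time since stimulation with the time in the compound.

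HF blocks the prolyl-tRNA synthetase activity of EPRS, so that uncharged proline tRNA builds up. Uncharged tRNA activates the kinase GCN2, which phosphorylates eIF2 alpha, and the transcription factor ATF4 is then translated and turns on genes for amino acid synthesis and uptake. T cell receptor stimulation for its part runs in waves, in which immediate early transcription factors come first, cytokines and metabolic genes follow, and genes of the resting state are shut down. Interferon response genes are a further set that activated T cells can switch on and off, through STAT and IRF transcription factors.

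The labelled cell type was set against its markers by the log2 of summed intensity, which is given as a level of each list only, since probe sets differ in brightness. The log2 of the summed intensity of the 13 measured T cell markers lay between 14.9 and 15.2 on the HF arrays at 3 h, and between 14.6 and 14.7 at 6 h. That of 17 myeloid markers lay between 10.7 and 11.0 on the 6 HF arrays, that of 11 B cell markers between 10.2 and 10.4, and that of 10 MHC class II presenting cell markers between 10.5 and 11.4. None of the myeloid, CD8 T or NK, and erythroid markers was called in the HF course, and the B cell marker Cd79b (-0.33 ± 0.10) and the MHC class II presenting cell marker Itgax (-0.40 ± 0.10) were lower at 6 h. The call of Cd79b was lost without each of 5 single arrays. With the replicate number fitted as a block 6 MHC class II presenting cell markers were lower and 1 higher, 2 myeloid markers were lower, and 1 CD8 T or NK marker was higher and 2 lower. With the actin control difference as a covariate 7 MHC class II presenting cell markers, 1 myeloid and 3 CD8 T or NK markers were lower. Their part in the course was not tested. Median intensity per array was 97.3 to 102. Over the 18193 genes tested, arrays of the same group had correlations of 0.992 to 0.997 with each other. The actin control probe sets at the 3' end read above those at the 5' end, a sign of RNA quality, by 1.25 ± 0.28 (SD, n = 3) at 3 h and 1.07 ± 0.26 (SD, n = 3) at 6 h with HF on the log2 scale. The difference was lower at 6 h for 3 of 3 replicate numbers, by 0.11 to 0.26. An exact two-sided permutation test gave a p of 0.5, where 0.1 is the smallest that 3 against 3 arrays can give. That test does not use the replicate numbers, so it cannot judge a shift shared by the numbers. The actin difference moved likewise with MAZ1310, from 1.03 to 0.86, again lower for 3 of 3 numbers. The Gapdh control difference was lower at 6 h for 3 of 3 numbers with each compound.

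Between 3 h and 6 h in HF, 2838 of 18193 genes changed, which is 15.6% of the genes tested. Of these 1516 were higher at 6 h (8.33%) and 1322 were lower (7.27%). A gene was called at an adjusted p under 0.05 from limma, with Benjamini-Hochberg adjustment over the 18193 genes. Most changes were small: 88.5% of the called genes moved by less than 2-fold, and 327 moved by 2-fold or more, 128 upward and 199 downward. The 3 arrays at 6 h did not overlap the 3 at 3 h for 32.8% of all genes. The count fell to 1735 when the replicate number was fitted as a block together with the actin difference, and 1586 of the 2838 genes were called the same way there, among them 324 of the 327 genes that moved 2-fold. Without the 4 arrays numbered 1 it was 1386, and without those numbered 2 it was 1806. With the HF arrays fitted alone and the replicate number as a block it was 4510.

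The largest rise was that of Cth, cystathionine gamma-lyase, the enzyme that releases cysteine in transsulfuration. Its intensity was 36.3, 76.0 and 48.7 on the 3 arrays at 3 h and 426, 524 and 488 at 6 h, a change of 3.22 ± 0.20 (log2 ± SE, adjusted p = 1.98e-07), or 9.32-fold. The 3 h arrays lay below the array medians and the 6 h arrays well above them. Lta, the cytokine lymphotoxin alpha, read 818, 913 and 1089.9 at 3 h and 3841, 5749.8 and 5067 at 6 h, and rose by 2.37 ± 0.15 (adjusted p = 1.98e-07). Gphn, which encodes the scaffold and molybdenum cofactor enzyme gephyrin, rose from 211, 269 and 174 to 1136, 1142 and 1126, with no overlap and little spread at 6 h. Pdgfb, a growth factor subunit, was 5.41-fold higher at 6 h (2.44 ± 0.35, adjusted p = 0.000148). Timp1, an inhibitor of matrix metalloproteinases, was 5.03-fold higher (2.33 ± 0.32, adjusted p = 0.00012), with arrays at 3 h that ranged widely, from 773 to 1718. The other named rises among the 15 largest were Cpd, Nefh, Fgf13, Cyb5r1, the TGFb-induced repressor Klf10, Ybx3, the oxygen-sensing prolyl hydroxylase Egln3, the G1 kinase Cdk6 and Slfn10-ps, between 3.31-fold and 4.99-fold. Of the 15, 1 has only a clone name.

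The largest fall was that of Arhgap15, a GTPase-activating protein for Rac. It read 1035, 1178 and 1482 at 3 h and 182, 119 and 146 at 6 h, a change of -3.05 ± 0.25 (adjusted p = 1.18e-06), or 8.29-fold lower. Il6ra, the receptor chain for the IL-6 in the medium, read 2255, 2238 and 2538 at 3 h and 424, 525 and 472 at 6 h (-2.31 ± 0.17, adjusted p = 5.33e-07). Both genes fell to a small part of the earlier level on each array at 6 h. Il10ra, the IL-10 receptor chain, fell from 544, 444 and 348 to 129.5, 103 and 90.5, and Sgk1, a kinase with a role in Th17 cells, from 1582, 1217 and 1964 to 423, 275 and 482. An Il10ra probe set of like brightness was not called when every probe set was fitted on its own (-0.37 ± 0.13, limma adjusted p = 0.083). A dimmer one was not called either (-0.07 ± 0.10). Samd9l, a restriction factor, was 6.24-fold lower, Rtp4, a chaperone of receptors, 6.00-fold, Epsti1 5.14-fold, the ubiquitin ligase Rnf213 4.49-fold, Parp14, an ADP-ribosyltransferase, 4.23-fold and the nuclear body protein Sp100 4.13-fold. Of the named falls in this group Parp14 is a member of the interferon response list described further on. The remaining named falls were Kbtbd11 (5.39-fold), Itm2a (4.75-fold) and the cathepsin inhibitor-like Ctla2a (4.29-fold), while 2 of the 15 have only clone names.

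**Figure D1:**
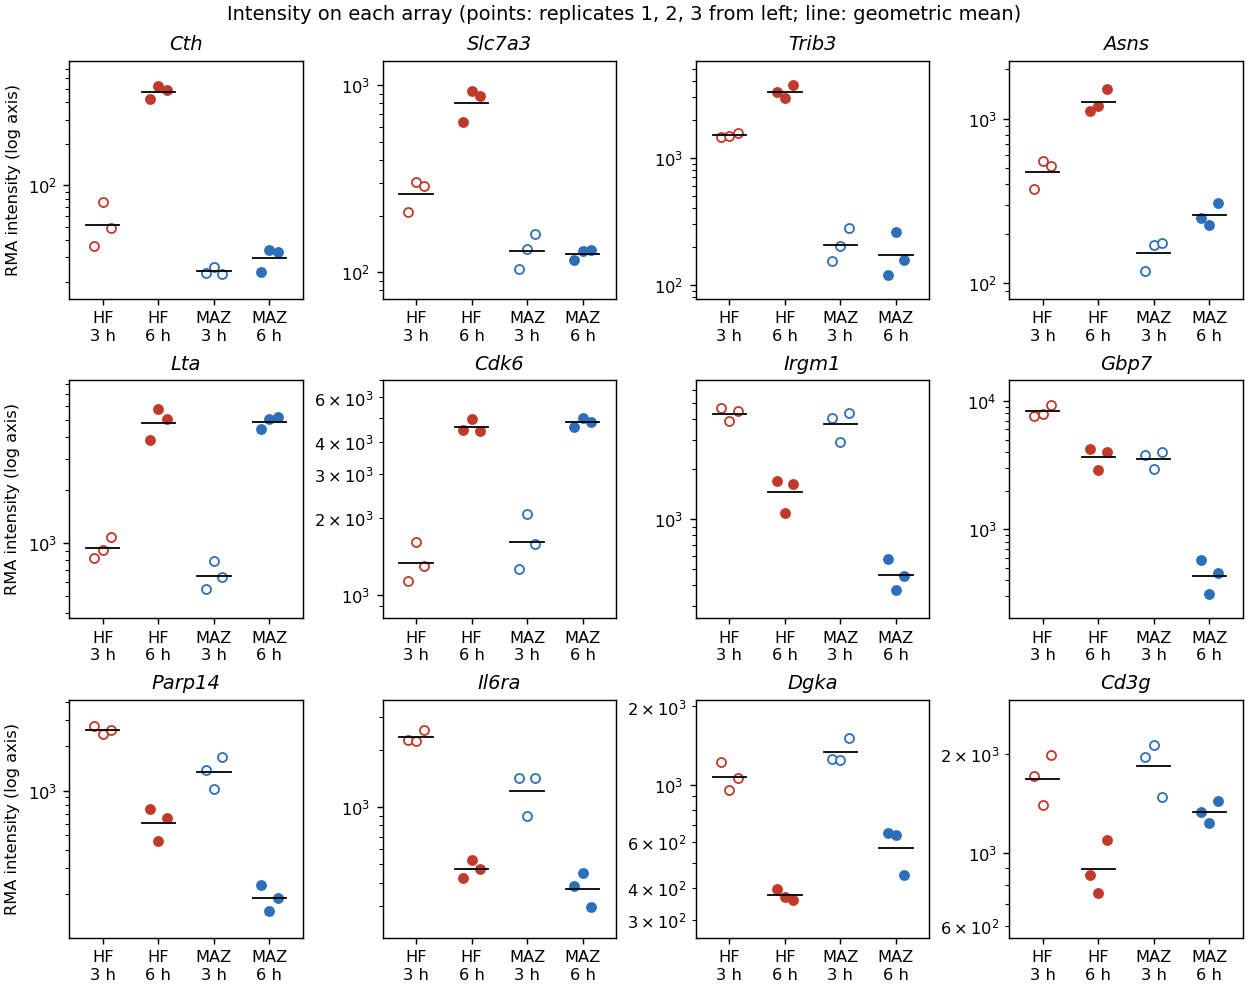
Intensity of 12 genes on each of the 12 arrays (log axis), with open points at 3 h, filled points at 6 h and a line at the geometric mean of 3 arrays. Cth, Slc7a3 and Trib3 are higher at 6 h than at 3 h on the HF arrays (red), while their MAZ1310 arrays (blue) overlap between times; Irgm1 and Gbp7 fall with both compounds.

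The course in HF was next set beside the course in MAZ1310, which uses separate arrays. With MAZ1310, 3595 genes (19.8%) changed between 3 h and 6 h, 2205 of them upward and 1390 downward. The 2 lists of calls shared 1782 genes with the same direction, which is 62.8% of the calls with HF and 49.6% of those with MAZ1310. Of the 327 genes that moved 2-fold in HF, 297 were called the same way with MAZ1310. Opposite directions were called for 24 genes. The difference of the courses itself passed the test for 328 genes (1.8%), 161 of them with a higher and 167 with a lower course in HF. A call in 1 course and not in the other was a weaker statement: of 1032 genes called in HF and not with MAZ1310, the difference was called for 92. With the replicate number as a block, 680 genes differed between the courses. Without 1 array of the 12, the count ran from 129 (without HF 3 h replicate 1) to 602 (without MAZ1310 3 h replicate 1).

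Cth had the largest difference: with MAZ1310 it read 23.2, 25.7 and 22.9 at 3 h and 23.7, 33.8 and 32.6 at 6 h, and the courses differed by 2.91 ± 0.28 (adjusted p = 0.000199). Lta rose with MAZ1310 as well, by 2.91 ± 0.15, and the difference of its courses, -0.55 ± 0.22 (95% interval -1.01 to -0.08), did not pass the test (adjusted p = 0.281). Arhgap15 fell with MAZ1310 too (-3.10 ± 0.25), with a difference of 0.04 ± 0.35 (95% interval -0.70 to 0.79, adjusted p = 0.983). Samd9l changed by -2.75 ± 0.17 with MAZ1310, with a difference of 0.11 ± 0.24 (95% interval -0.40 to 0.62, adjusted p = 0.932). With the replicate block the difference of Lta was called, at an adjusted p of 0.0499. Cyb5r1, a cytochrome b5 reductase, rose in both, from 579, 699 and 588 to 2321, 2842 and 2526 in HF and from 456, 578 and 505 to 689, 750.0 and 712 with MAZ1310, and the rise was larger in HF (difference 1.55 ± 0.15, adjusted p = 0.000199).

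Some genes rose with MAZ1310 and stayed near their 3 h level in HF. Ddit4, a brake on mTORC1, read 1406, 1265 and 1295 at 3 h and 1248, 1146 and 1221 at 6 h in HF, against 477, 646 and 446 at 3 h and 1637, 1783 and 1679 at 6 h with MAZ1310 (difference -1.85 ± 0.16, adjusted p = 0.000139). The HF arrays were already high at 3 h. The chemokine receptor Ccr7 read 255, 173 and 320.3 at 3 h and 251, 246 and 287 at 6 h in HF, and 290.4, 278 and 381 at 3 h and 856, 895 and 639 at 6 h with MAZ1310 (difference -1.22 ± 0.27, adjusted p = 0.0292). Here it was the MAZ1310 arrays at 6 h that stood above the other groups. The difference of Ccr7 lost its call without each of 7 single arrays, at adjusted p-values from 0.0562 to 0.0978. Gpr174, a lysophosphatidylserine receptor of lymphocytes, had another pattern. It fell in HF from 333, 217 and 381 to 161, 86.8 and 125, while its arrays overlapped between times with MAZ1310 (difference -1.55 ± 0.31, adjusted p = 0.0172). This difference was not called without MAZ1310 6 h replicate 2, HF 3 h replicate 1 or HF 3 h replicate 3, at adjusted p-values from 0.0527 to 0.0638. A dimmer Gpr174 probe set changed less in HF (-0.48 ± 0.11).

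**Figure D2:**
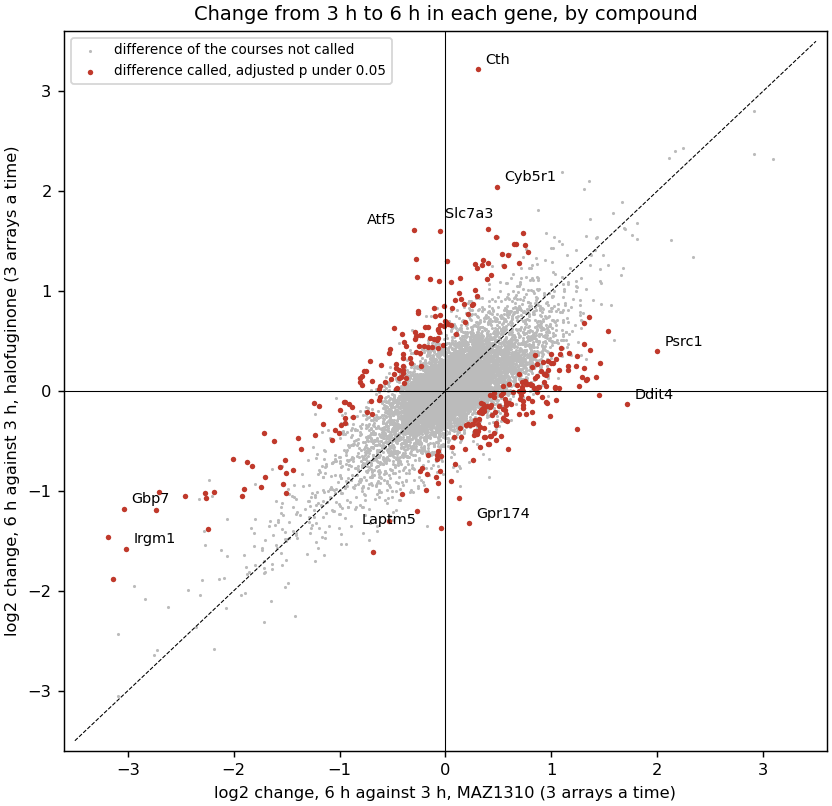
Log2 change from 3 h to 6 h in HF (vertical axis) against that with MAZ1310 (horizontal axis) for 18193 genes, each from 3 arrays a time. The 328 genes in red differed between the courses; Cth, Atf5 and Slc7a3 lie near 0 with MAZ1310 and between 1.61 and 3.22 in HF.

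ATF4 and its targets rose more often than they fell in HF. Of 45 measured members 21 were higher at 6 h, 4 were lower and 20 were not called, with a median change of 0.30, against -0.01 over all genes. The share called was 55.6%, against 15.6% of all genes tested. With MAZ1310 the same list had 8 higher and 4 lower and a median of -0.05, and the difference of the courses was called for 9 members, 8 of them toward HF. That is 20% of the list, against 1.8% of all genes tested. Without HF 3 h replicate 1 the HF count was 15 higher and 1 lower, and without the 4 arrays numbered 1 it was 13 higher and 1 lower. The mRNA of Atf4 itself did not pass the test, at 7793, 8658 and 7998 at 3 h and 8452, 8414 and 8338 at 6 h (0.05 ± 0.08, adjusted p = 0.816).

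Among the transcription factors, Atf5 rose from 716, 1124 and 905 to 2455, 3124 and 2719 (1.61 ± 0.16, adjusted p = 5.39e-06). Its MAZ1310 arrays read 316, 475 and 374 at 3 h and 308, 317 and 311 at 6 h. Atf3, a stress factor that is also an immediate early gene, fell by 1.14 ± 0.13 in HF (adjusted p = 1.81e-05) and by 1.22 ± 0.13 with MAZ1310. Ddit3, or CHOP, a proapoptotic factor, read 2134, 1944 and 2388 at 3 h and 1712, 1370.3 and 1887 at 6 h (-0.39 ± 0.12, adjusted p = 0.0331). Its call did not hold without HF 6 h replicate 2 (-0.26, adjusted p = 0.178), HF 3 h replicate 1 (-0.39, adjusted p = 0.0867), HF 3 h replicate 3 (-0.31, adjusted p = 0.143) or HF 6 h replicate 1 (-0.42, adjusted p = 0.059). Trib3, a pseudokinase that restrains ATF4 and AKT, rose from 1463, 1481 and 1558 to 3299.9, 2952 and 3743 (1.14 ± 0.23, adjusted p = 0.0025), far above the MAZ1310 arrays at both times.

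Carriers and enzymes of the list rose too. Slc7a3, a carrier of cationic amino acids, rose from 209, 302 and 289 to 633, 931 and 872 (1.61 ± 0.17, adjusted p = 1.20e-05). Slc6a9, the glycine carrier, rose from 473, 598 and 493 to 1473, 1785 and 1536 (1.62 ± 0.10, adjusted p = 1.98e-07). For both carriers the groups did not overlap and the course was steeper in HF than with MAZ1310, by 1.66 ± 0.24 and 1.22 ± 0.14. Asns, asparagine synthetase, read 373, 551 and 518 at 3 h and 1119, 1198 and 1519.8 at 6 h (1.42 ± 0.17, adjusted p = 3.93e-05). It rose with MAZ1310 too, by 0.76 ± 0.17, and the difference did not pass the test (0.66 ± 0.25, 95% interval 0.14 to 1.19, adjusted p = 0.232). A fit with the replicate block did call the difference of Asns (adjusted p = 0.0377), as did block and actin covariate together (adjusted p = 0.0233). Gpt2, the mitochondrial alanine aminotransferase, rose from 317, 376 and 377 to 635, 754 and 726 in HF, and its MAZ1310 arrays stayed between 32.9 and 45.2. Eif4ebp1, the inhibitor of cap-dependent translation, rose with both compounds, by 1.08 ± 0.13 in HF and by 1.47 ± 0.13 with MAZ1310. Chac1, which degrades glutathione, rose by 0.56 ± 0.14 in HF (adjusted p = 0.0089). Enzymes of amino acid synthesis were higher for 15 and lower for 2 of 37 genes. Carriers of amino acids were higher for 6 and lower for 1 of 35, and of 39 aminoacyl-tRNA synthetases and their partners 9 were higher and 0 lower. The shares called in these lists were 45.9%, 20% and 23.1%, against 15.6% of all genes tested. Without the 4 arrays numbered 1 the enzymes had 10 higher and 1 lower, the transporters 3 higher and 0 lower, and the synthetases 5 higher. Leaving out HF 3 h replicate 1 alone gave 3 transporters and 5 synthetases higher. At an unadjusted p under 0.05, 17 synthetases passed, and Eprs, which holds the HF target, rose by 0.47 ± 0.10 (adjusted p = 0.00442). With MAZ1310 the enzymes had 10 higher and 2 lower, the transporters 3 and 2, and the synthetases 9 and 1. The synthetase medians were 0.14 in HF and 0.13 with MAZ1310. The difference of courses was called upward for 3 enzymes and 2 transporters and downward for 1 transporter. It was called for 0 of the 39 synthetases, and for 1 with the replicate block.

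The C/EBP-ATF element, searched as TGATGNAAN on both strands in the 250 bases before each start site, was present in 4 of the 16 promoters matched among the 21 ATF4 list genes that rose (25%). It was present in 2.82% of the promoters of all genes tested. Over every gene called, it was present in 1.94% of those higher in HF and 2.90% of those lower. Among genes that rose 2-fold or more it was present in 4.85%, and among those that fell 2-fold or more in 2.67%. Of the 9 promoters matched among the 15 largest rises, 0 held it. All 4 are shown, since they are the stretches in which the letters occur among the list genes that rose. They are from RefSeq's promoter table in build GRCm38.p6, 5' to 3' along the gene, with the match in capitals.
Asns, chr6:7693210-7693292, minus strand: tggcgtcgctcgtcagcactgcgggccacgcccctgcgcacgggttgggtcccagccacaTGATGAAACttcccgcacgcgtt
Pck2, chr14:55540102-55540230, plus strand: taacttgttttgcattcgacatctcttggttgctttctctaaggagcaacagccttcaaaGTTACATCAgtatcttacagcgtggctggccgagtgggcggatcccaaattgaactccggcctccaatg
Chac1, chr2:119350992-119351116, plus strand: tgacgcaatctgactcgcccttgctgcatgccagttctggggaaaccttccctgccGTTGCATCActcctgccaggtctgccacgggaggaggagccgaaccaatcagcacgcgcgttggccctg
Slc7a11, chr3:50443614-50443739, minus strand: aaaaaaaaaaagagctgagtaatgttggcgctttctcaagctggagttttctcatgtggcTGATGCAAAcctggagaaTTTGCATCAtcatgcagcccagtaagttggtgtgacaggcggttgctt
The match begins 23 bases before the start in Asns, 104 in Pck2 and 194 in Chac1, and Slc7a11 holds a pair, at 66 and 48. Pck2, the mitochondrial enzyme that makes phosphoenolpyruvate, rose by 0.73 ± 0.11 (adjusted p = 0.000211). Slc7a11, the cystine carrier, read 57.2, 63.9 and 68.0 at 3 h and 88.5, 77.4 and 104 at 6 h (0.51 ± 0.16, adjusted p = 0.0385), a dim gene whose call was lost without each of 5 of the 6 HF arrays, at adjusted p-values from 0.0554 to 0.179. A match of these letters is a description of the window and was not tested as a site.

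Interferon response genes had the largest share of members lower among the lists described here. Of 61 measured members 47 were lower at 6 h in HF, 0 were higher and 14 were not called, with a median change of -0.99. The share called was 77%, against 15.6% of all genes tested. Leaving out 1 array at a time gave 39 to 49 members lower. With MAZ1310 50 were lower and 1 higher, with a median of -1.23. The fall included receptors of viral RNA such as Ifih1 (-1.58 ± 0.21, adjusted p = 7.0e-05), and the transcription factors Irf7 (-1.31 ± 0.14, adjusted p = 1.2e-05), Irf1 (-1.30 ± 0.11, adjusted p = 1.21e-06) and Stat2 (-1.28 ± 0.21, adjusted p = 0.000423). The deubiquitinase Usp18, a brake on interferon signalling, fell from 377, 229 and 249 to 80.3, 64.6 and 92.4, and Parp9 from 1249.8, 958 and 1200.1 to 333, 246 and 356, with no overlap. The immunoproteasome subunits Psmb8 (-1.23 ± 0.16, adjusted p = 8.11e-05) and Psmb10 (-1.14 ± 0.13, adjusted p = 2.57e-05) and the loading factor Tapbp (-1.16 ± 0.10, adjusted p = 1.52e-06) fell too. Irf1, Irf7, Stat2, Ifih1 and Tapbp are named after their values were seen.

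Some of these genes fell less in HF than with MAZ1310. Gbp7, a guanylate-binding GTPase of cell-autonomous immunity, read 7696, 7982 and 9372 at 3 h and 4233, 2910.0 and 4035 at 6 h in HF. With MAZ1310 it read 3821, 2941 and 4018 at 3 h and 571, 313 and 458 at 6 h, so the 6 h arrays in HF stood near the 3 h arrays with MAZ1310. The change was -1.18 ± 0.19 in HF and -3.04 ± 0.19 with MAZ1310 (difference 1.86 ± 0.27, adjusted p = 0.00332). Irgm1, an immunity-related GTPase, began at overlapping levels, 4641, 3879 and 4507 in HF and 4072, 2926 and 4337 with MAZ1310. At 6 h it read 1699, 1097 and 1639 in HF and 575, 374 and 453 with MAZ1310 (difference 1.44 ± 0.26, adjusted p = 0.0113). The difference of courses was called for 10 of the 61 members (16.4%, against 1.8% of all genes tested), each with the shallower fall in HF. They were Gbp6, Gbp7, Gbp8, Igtp, Iigp1, Irgm1, Irgm2 and Ifi47, which are GTPases of the GBP and IRG families, the antigen peptide transporter Tap1 and Nlrc5, a transactivator of MHC class I genes. Ifi47, Iigp1, Irgm2, Igtp, Gbp6, Tap1 and Nlrc5 are named after their values were seen. For the 51 others, among them Usp18 (difference 0.04 ± 0.32, adjusted p = 0.983) and Ifit1 (difference -0.02, adjusted p = 0.99), the test of the difference was not passed. With the replicate block 14 members had a called difference, Parp14 among them (adjusted p = 0.0218).

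**Figure D3:**
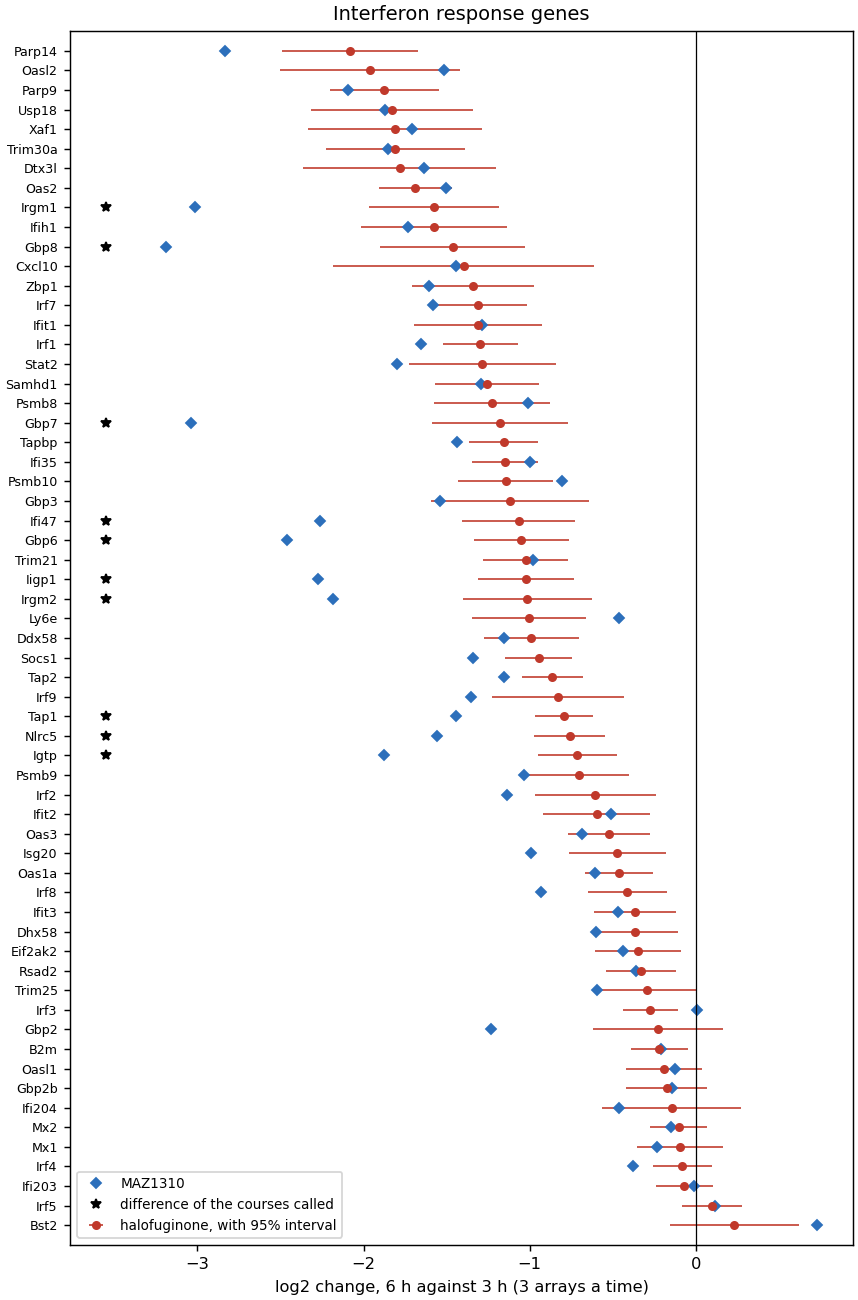
Log2 change from 3 h to 6 h of the 61 interferon response genes, in HF (red, with 95% intervals) and with MAZ1310 (blue). All but Bst2 and Irf5 lie below 0 in HF, and the 10 genes with a star, among them Gbp7, Gbp8 and Irgm1, fall further with MAZ1310.

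Elements were searched in the promoters of these genes in the same way. The interferon element, searched as GAAANNGAA and added after the values were seen, was present in 16 of 36 matched promoters of the 47 members that fell (44.4%), against 7.51% of the promoters of all genes tested. The STAT element TTCNNNGAA was present in 11 of the 36 (30.6%), against 7.42%. The AP-1 element TGANTCA was present in 7 of the 36 (19.4%), against 6.70%. The 4 promoters with a match among the 10 genes whose courses differed are shown, with matches to the interferon or STAT element in capitals. They are not a share of the 10, since not all genes had a promoter to search. Any tie of the elements to the difference of courses was not tested.
Irgm1, chr11:48871421-48871510, minus strand: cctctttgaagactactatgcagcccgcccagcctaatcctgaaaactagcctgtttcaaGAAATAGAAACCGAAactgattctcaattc
Gbp7, chr3:142530170-142530335, plus strand: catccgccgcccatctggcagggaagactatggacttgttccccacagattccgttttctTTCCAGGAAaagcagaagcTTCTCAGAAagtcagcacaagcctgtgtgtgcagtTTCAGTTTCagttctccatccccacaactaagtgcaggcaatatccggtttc
Irgm2, chr11:58214842-58214976, plus strand: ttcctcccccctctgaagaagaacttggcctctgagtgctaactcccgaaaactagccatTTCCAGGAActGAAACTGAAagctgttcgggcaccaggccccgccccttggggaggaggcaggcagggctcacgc
Igtp, chr11:58199451-58199555, plus strand: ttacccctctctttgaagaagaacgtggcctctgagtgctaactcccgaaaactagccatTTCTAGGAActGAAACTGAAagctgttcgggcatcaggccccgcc
Irgm1 holds a pair of overlapping matches to the interferon element, and Gbp7 has STAT elements at 106 and 87 bases before the start with an interferon element nearer to it. In Irgm2 a STAT element at 75 is followed by an interferon element at 64, and Igtp, a neighbour on the same chromosome, has the like order at 45 and 34. Among the genes that fell 2-fold or more in HF, the STAT element was present in 13.3% of promoters, the interferon element in 16.0% and the AP-1 element in 8.67%. An E box, CACGTG, was present in 15.5% of the promoters of genes that rose 2-fold or more, 8.67% of those that fell 2-fold or more and 8.73% of all genes tested. A GC box, GGGCGG, was present in 75.7%, 49.3% and 53.4%. Over every gene called, the GC box was present in 68.9% of those higher and 65.5% of those lower, and the E box in 12.2% and 7.20%.

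Cytokine genes went in both directions, with 10 of 38 higher, 3 lower and 25 not called (6 higher and 0 lower without the 4 arrays numbered 1). In the main fit 34.2% of the list was called, against 15.6% of all genes tested. Il2, the growth factor of T cells, rose from 10760.1, 13512 and 12388 to 20239.7, 20953 and 19859 (0.74 ± 0.10, adjusted p = 0.000126). Il21, which supports Th17 and follicular helper cells, rose from 2839, 3198 and 3061 to 5109, 5668 and 5054 (0.80 ± 0.09, adjusted p = 2.52e-05). Another bright Il21 probe set was not called when every probe set was fitted on its own (0.19 ± 0.16, limma adjusted p = 0.604). Tnf was 2.11-fold and Ltb, the partner of lymphotoxin alpha, 3.21-fold higher at 6 h. Il2, Il21, Tnf and Ltb rose with MAZ1310 as well, and no difference of courses was called in the list. With the replicate block 1 member had a called difference upward and 1 downward, Lta (adjusted p = 0.0499). Il4, the Th2 cytokine, fell from 2159, 1730.2 and 1759 to 464, 623 and 777 (-1.62 ± 0.33, adjusted p = 0.00248). Tnfsf11, or RANKL, fell by 1.09 ± 0.24 (adjusted p = 0.00535).

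Il17a, the cytokine for which Th17 cells are named, did not pass the test. Its arrays read 1185, 810.2 and 739.8 at 3 h and 1671, 743 and 893 at 6 h in HF, and the replicates differed more than the times did (0.21 ± 0.34, adjusted p = 0.78). It read 1163, 729.7 and 536 at 3 h and 1479.7, 630.1 and 832 at 6 h with MAZ1310, and replicate 1 was the highest array in each of the 4 groups. Of 23 Th17 genes 6 were higher and 3 lower, a share called of 39.1%, against 15.6% of all genes tested. Rora, a Th17 lineage factor, rose from 541, 570.0 and 696 to 1176, 1206 and 1490.3 (1.10 ± 0.19, adjusted p = 0.000788). Maf rose by 1.00 ± 0.17, Ahr, the aryl hydrocarbon receptor, by 0.82 ± 0.10, and Il12rb1, a chain of the IL-12 and IL-23 receptors, by 1.17 ± 0.16. Batf (-0.21 ± 0.10, adjusted p = 0.208) and Irf4 (-0.08 ± 0.08, adjusted p = 0.633), factors of early Th17 differentiation, did not pass the test.

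For the other lineages, Tbx21, or T-bet, the Th1 factor, read 6089, 6558 and 6819.7 at 3 h and 4992, 4451 and 4897 at 6 h (-0.44 ± 0.11, adjusted p = 0.0133). The fall was deeper with MAZ1310, by 1.23 ± 0.11, and the courses differed (0.79 ± 0.16, adjusted p = 0.0202). The difference was not called without MAZ1310 6 h replicate 2, HF 3 h replicate 1 or HF 6 h replicate 1, at adjusted p-values from 0.0641 to 0.0717. In HF its call was lost without 3 h replicate 3 (-0.40, adjusted p = 0.0564) or 6 h replicate 2 (-0.39, adjusted p = 0.0657). Stat4, which carries IL-12 signals, fell from 497, 340.2 and 332 to 268, 152 and 169 (-1.01 ± 0.21, adjusted p = 0.00339). Foxp3, the regulatory T cell factor, stayed between 161 and 208 on the 6 HF arrays (-0.07 ± 0.14, adjusted p = 0.832), and Gata3, the Th2 factor, between 124 and 217 (-0.37 ± 0.18, adjusted p = 0.226).

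More immediate early genes fell than rose. Of 38 immediate early genes 18 were lower, 5 higher and 15 not called, with a median change of -0.38. Egr3 fell from 8242, 6943 and 7777 to 3736, 3078 and 4076 (-1.08 ± 0.12, adjusted p = 2.08e-05), Nr4a2 from 6647, 5596 and 6469 to 3125, 2713 and 3115 (-1.06 ± 0.10, adjusted p = 2.99e-06) and Fos by 0.94 ± 0.14 (adjusted p = 0.000175). Fosl1, a late partner of Jun proteins, went the other way, from 612, 526 and 550.2 to 1297, 1221 and 1189.5 (1.14 ± 0.08, adjusted p = 3.72e-07). Among markers of activation, Cd69 (-0.15 ± 0.08, adjusted p = 0.289) and Myc (-0.05 ± 0.11, adjusted p = 0.85) did not pass the test in HF. With MAZ1310 Cd69 fell by 0.43 ± 0.08 and Myc by 0.54 ± 0.11, and the difference was not called for either, with adjusted p-values of 0.312 and 0.161. Without MAZ1310 3 h replicate 1 that of Myc was called (adjusted p = 0.0417). Without the 4 arrays numbered 1 the list had 11 lower and 2 higher in HF, and without those numbered 2 it had 13 lower and 2 higher. In the main fit 60.5% of the list was called in HF, against 15.6% of all genes tested. With MAZ1310 22 of the 38 were lower and 5 higher, with a median of -0.46.

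Naive and homing genes fell in HF, 19 of 35 against 3 that rose, with a median of -0.42, and 12 fell without the 4 arrays numbered 1. In the main fit 62.9% of the list was called, against 15.6% of all genes tested. Il7r, the receptor for the survival cytokine IL-7, fell from 497, 344 and 438 to 185, 157 and 159 (-1.34 ± 0.15, adjusted p = 2.15e-05). Gpr183, an oxysterol receptor that guides lymphocytes, fell from 4677, 3536 and 4009.8 to 1407, 1215 and 1575 (-1.54 ± 0.13, adjusted p = 1.88e-06). Klf2, a quiescence factor, fell by 0.86 ± 0.11 (adjusted p = 8.07e-05). None of these 3 had a called difference from MAZ1310 without a block. For Gpr183 the difference was called with the replicate block (0.73, adjusted p = 0.0097), with the actin covariate (adjusted p = 0.00915) and with both (adjusted p = 0.00823).

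Genes of the T cell receptor and its signalling fell as well, 24 of 43 against 3 higher, with a median of -0.42 in HF and -0.38 with MAZ1310. The share called in HF was 62.8%, against 15.6% of all genes tested. Without the 4 arrays numbered 1, 14 were lower and 1 higher. No member had a called difference of courses, and with the replicate block 1 was called upward and 2 downward. The signal brake Dgka, diacylglycerol kinase alpha, fell from 1221, 953 and 1056 to 397, 369 and 359 (-1.51 ± 0.14, adjusted p = 2.45e-06). Rasgrp1, which activates Ras, fell by 1.20 ± 0.11 (adjusted p = 2.46e-06), the phosphatase Ptpn22 by 1.24 ± 0.14 (adjusted p = 2.55e-05) and Tespa1 by 1.48 ± 0.12 (adjusted p = 1.21e-06). The CD3 chains were among them: Cd3g read 1712, 1396 and 1986 at 3 h and 858, 759.6 and 1098 at 6 h (-0.91 ± 0.16, adjusted p = 0.000766), and Cd3d 3750.1, 3239 and 3865 at 3 h and 2039, 1659 and 2175 at 6 h (-0.89 ± 0.17, adjusted p = 0.0019). For both chains each array at 6 h lay below each at 3 h. Of the 13 T cell markers 8 were lower in HF and 2 higher (4 and 1 without the 4 arrays numbered 1), with a median of -0.66, and 4 were lower and 2 higher with MAZ1310, with a median of -0.23. In such bulk samples fewer T cells and less RNA of these genes per cell cannot be told apart. The difference of courses was called for 0 of the 13 by limma, with Thy1 at -0.99 ± 0.29 (adjusted p = 0.109). With the replicate block it was called downward for 2 of them, Thy1 among them (adjusted p = 0.0219). The MAZ1310 values rest partly on 3 h replicate 3, in which Thy1 read 1837 against 3440 and 3820, and without that array the MAZ1310 median was -0.50.

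Of 36 activation and checkpoint receptors 9 were higher and 9 lower, and without the 4 arrays numbered 1, or those numbered 2, 5 were higher and 5 lower. Cd28, the costimulatory receptor that the culture engages, fell from 1068, 792 and 974 to 503, 403 and 393 (-1.12 ± 0.12, adjusted p = 1.12e-05). Cd200 rose from 1377, 1573 and 1638 to 3286, 3193 and 3112 (1.07 ± 0.09, adjusted p = 1.52e-06). Of 26 NF-kB subunits and inhibitors 11 were lower and 1 higher (6 and 0 without the 4 arrays numbered 1, or those numbered 2), among them Tnfaip3, or A20, which ends NF-kB signalling (-0.75 ± 0.12, adjusted p = 0.000311), and Birc3 (-0.78 ± 0.09, adjusted p = 3.38e-05). Of 28 IL-6 and STAT3 response genes 11 were lower and 1 higher (7 and 0 without the 4 arrays numbered 1). Socs3, the feedback inhibitor of IL-6 signalling, fell from 4793, 4556 and 4054 to 2625, 2008 and 2180.3 (-0.98 ± 0.16, adjusted p = 0.000385). It fell further with MAZ1310, by 1.90 ± 0.16 (difference 0.92 ± 0.22, adjusted p = 0.0485), a difference that lost its call without each of 10 single arrays (adjusted p from 0.0624 to 0.142). With MAZ1310 16 of the NF-kB genes and 17 of the IL-6 and STAT3 genes were lower and 0 higher. Their medians were -0.43 and -0.48 with MAZ1310, against -0.26 and -0.23 in HF. The difference of courses was called upward for 2 and 4 of them and downward for 0. Of 28 TGFb response genes 7 were higher and 3 lower in HF. Smad3, a signal carrier of TGFb, rose from 1066, 1323 and 1104 to 2026, 2276 and 2082 (0.88 ± 0.12, adjusted p = 0.000104). The receptor chains parted, with Tgfbr1 higher (0.89 ± 0.11, adjusted p = 3.59e-05) and Tgfbr2 lower (-0.70 ± 0.15, adjusted p = 0.00332). Of 30 cytokine mRNA decay factors 7 were lower and 1 higher, with Zfp36, which binds AU-rich elements, at -1.04 ± 0.12 (adjusted p = 1.78e-05). Without single HF arrays this count was 4 lower and 1 higher for 3 h replicate 1, 3 h replicate 3 and 6 h replicate 3. The shares called in HF were 50% of the receptors, 46.2% of the NF-kB genes and 42.9% of the IL-6 and STAT3 genes. They were 35.7% of the TGFb genes and 26.7% of the decay factors, against 15.6% of all genes tested.

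**Figure D4:**
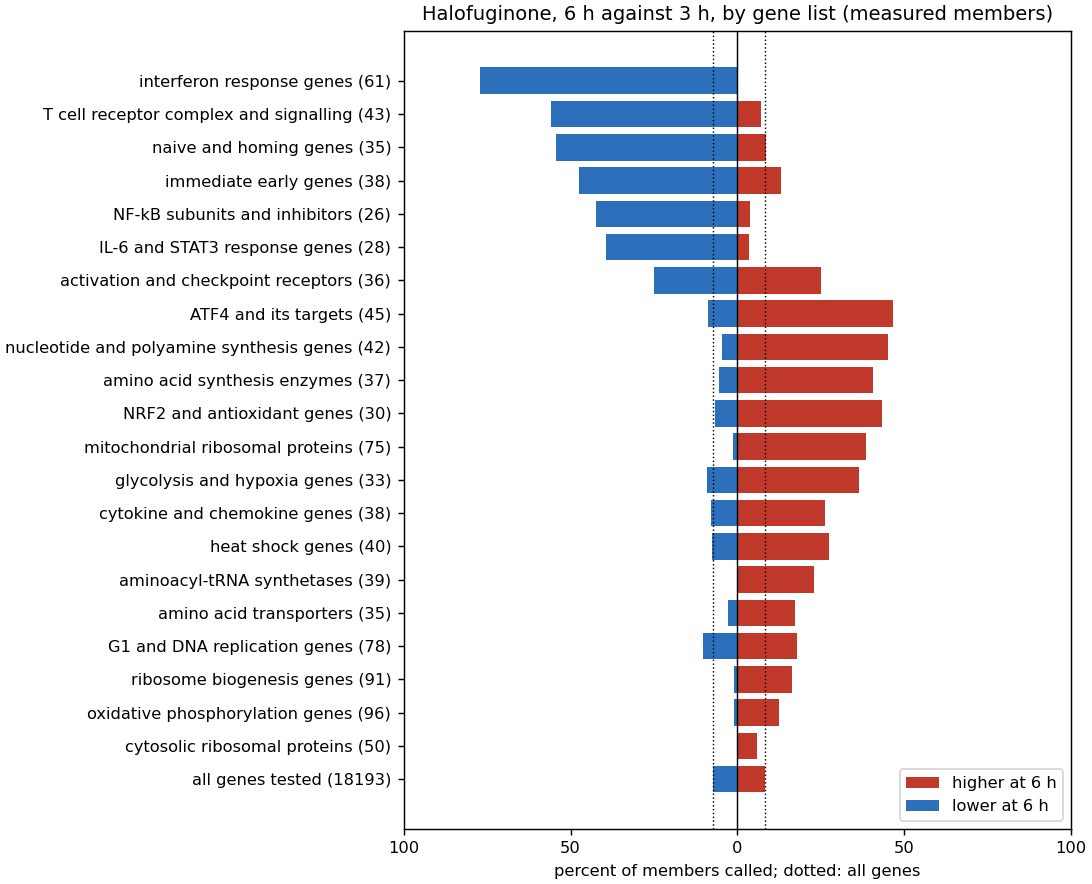
Percent of the measured members of 21 gene lists that were higher (red) or lower (blue) at 6 h than at 3 h in HF, with the number measured in parentheses and dotted lines at 8.33% and 7.27%, the shares over all genes tested. Interferon response genes reach 47 of 61 lower, and ATF4 and its targets 21 of 45 higher.

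Of 42 nucleotide and polyamine synthesis genes 19 were higher and 2 lower, with a median of 0.28 (10 and 2 without the 4 arrays numbered 1). Dhodh, which makes pyrimidines in the mitochondrion, rose from 254, 239 and 258 to 538, 613 and 621 (1.23 ± 0.11, adjusted p = 1.66e-06), and Cad, the first enzyme of that path, by 0.97 ± 0.15 (adjusted p = 0.000298). Ctps2, a CTP synthase, fell by 1.06 ± 0.17 (adjusted p = 0.000475). No member had a called difference from MAZ1310, and with the replicate block 2 did, Dhodh among them (adjusted p = 0.0342). Of 33 glycolysis and hypoxia genes 12 were higher and 3 lower in HF, and 10 higher and 3 lower with MAZ1310. The shares called in HF were 50% of the nucleotide and polyamine list and 45.5% of this one, against 15.6% of all genes tested. In the latter list the difference of courses was called upward for 4 members and downward for 1, Ddit4. Egln3 and Ak4, its largest changes in HF, had no called difference. Vegfa, a hypoxia and ATF4 target, rose from 279, 291 and 296 to 749, 712 and 779 in HF and from 81.6, 97.1 and 88.4 to 117, 131 and 139 with MAZ1310 (difference 0.84 ± 0.13, adjusted p = 0.00393). Hk2, hexokinase 2, rose from 1502, 2304 and 1867 to 4065, 4151 and 4060.1 (1.14 ± 0.16, adjusted p = 0.000117), while its MAZ1310 arrays overlapped between times (difference 1.00 ± 0.22, adjusted p = 0.034). The difference of Hk2 lost its call without each of 10 single arrays, at adjusted p-values from 0.0587 to 0.0967.

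Of 75 mitochondrial ribosomal proteins 29 were higher and 1 lower in HF, with a median of 0.30, and 64 were higher with MAZ1310, with a median of 0.62. Of 96 oxidative phosphorylation genes 12 were higher and 1 lower in HF, with a median of 0.13, and 58 were higher and 1 lower with MAZ1310, with a median of 0.55. The share of this list called was 13.5% in HF, against 15.6% of all genes tested. With MAZ1310 it was 61.5%, against 19.8%. The course was lower in HF than with MAZ1310 for 70 of the 75 and 90 of the 96 genes. The median differences were -0.34 and -0.41, against -0.01 over all genes tested. Genes of a list were read on the same arrays, so these counts are not of independent observations. Single genes seldom passed the test of the difference, 2 in each list, and 5 and 4 with the replicate block. Mrps35 of the small subunit rose from 220.4, 234 and 241 to 438, 435 and 455 (0.93 ± 0.08, adjusted p = 1.36e-06), much as with MAZ1310 (0.87 ± 0.08). Ndufaf6, an assembly factor of complex I, rose by 0.80 ± 0.09 (adjusted p = 2.78e-05). Cox7a2l, which joins respiratory complexes, fell from 1905, 1675 and 1909.5 to 958, 765 and 964 (-1.04 ± 0.10, adjusted p = 7.07e-06). With the actin covariate alone the HF medians of the mitochondrial ribosomal proteins and oxidative phosphorylation genes were 0.30 and 0.13, and with the block and the actin term together they were 0.15 and -0.02. In that last fit 3 mitochondrial ribosomal proteins were higher and 1 lower in HF, and 1 oxidative phosphorylation gene was higher and 2 lower. Without HF 6 h replicate 3, 18 mitochondrial ribosomal proteins and 3 oxidative phosphorylation genes were higher in HF. Without MAZ1310 3 h replicate 3 these counts were 44 and 29, and the median difference of courses went from -0.41 to -0.17 for oxidative phosphorylation and from -0.34 to -0.21 for mitochondrial ribosomal proteins. The part of the actin difference was not tested beyond these fits.

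**Figure D5:**
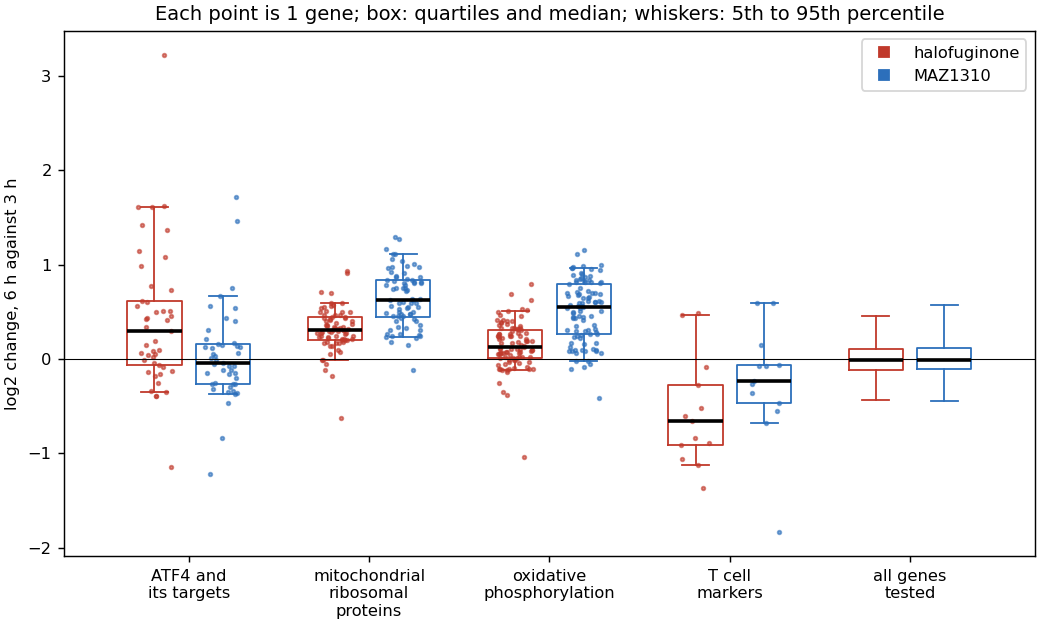
Log2 change from 3 h to 6 h of single genes in HF (red) and with MAZ1310 (blue) for 4 lists, with boxes at the quartiles and median and whiskers to percentiles 5 and 95, beside the boxes of all 18193 genes. The ATF4 list is centred at 0.30 in HF and -0.05 with MAZ1310, and the mitochondrial lists lie higher with MAZ1310.

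Of 91 ribosome biogenesis genes 15 were higher and 1 lower in HF, at a median of 0.17, and 3 of 50 cytosolic ribosomal proteins were higher. The shares called, 17.6% and 6%, lie near and below the 15.6% of all genes tested. Ubtf, a factor of RNA polymerase I, rose from 922, 1057 and 918 to 1709.5, 1827 and 1497 (0.80 ± 0.11, adjusted p = 0.000134). The biogenesis count was 6 higher without HF 3 h replicate 1 and 27 without MAZ1310 3 h replicate 3. Of 78 G1 and DNA replication genes 14 were higher and 8 lower, and 8 and 5 without HF 3 h replicate 1. In the main fit 28.2% of the 78 were called, against 15.6% of all genes tested. Cdk6 read 1131, 1609 and 1297 at 3 h and 4449.7, 4924 and 4406 at 6 h (1.78 ± 0.15, adjusted p = 1.52e-06). Ung, the uracil DNA glycosylase, rose from 480.2, 660.1 and 512 to 1339, 1467 and 1167 (1.27 ± 0.14, adjusted p = 1.44e-05). Of 62 mitosis genes 6 were lower and 1 higher, a share called of 11.3%, below that of all genes tested. With the replicate block 12 were lower and 1 higher. Wee1, which holds CDK1 inactive, rose by 0.69 ± 0.10 (adjusted p = 0.000218). Tfap4, a MYC target and partner, rose from 133, 168 and 131 to 399, 477 and 411 (1.58 ± 0.13, adjusted p = 1.10e-06), and Mxd1, a MYC antagonist, fell from 1765, 1909 and 3229 to 701, 598 and 1156 (-1.50 ± 0.30, adjusted p = 0.00274).

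Among stress and survival genes, 12 of 52 endoplasmic reticulum genes were higher and 7 lower (8 and 4 without HF 3 h replicate 1, 7 and 3 without HF 6 h replicate 2). The chaperone Hspa5, or BiP, did not pass the test (-0.13 ± 0.07, adjusted p = 0.312), Xbp1 fell from 2525, 2191 and 2793 to 1234, 1187 and 1563 (-0.92 ± 0.14, adjusted p = 0.000234) and the stress sensor Atf6 rose by 0.66 ± 0.09 (adjusted p = 7.78e-05). Of 40 heat shock genes 11 were higher and 3 lower (3 and 3 without the 4 arrays numbered 1). Hsph1, a nucleotide exchange factor for HSP70, rose from 2344, 2900.3 and 2486 to 4197, 5152 and 4389 (0.83 ± 0.12, adjusted p = 0.000127). Hspa4l, of the same family, fell from 788, 549.7 and 775 to 389.9, 321 and 395 (-0.92 ± 0.13, adjusted p = 0.000143). Both differed from their courses with MAZ1310, in which neither was called. The difference of Hspa4l lost its call without each of 8 single arrays, at adjusted p-values from 0.0567 to 0.0955. Bcl2l1, the survival factor BCL-XL, rose from 1079, 1659 and 1207 to 2588, 3039.9 and 2866 (1.13 ± 0.16, adjusted p = 0.000134). Of 30 NRF2 and antioxidant genes 13 were higher and 2 lower (6 and 0 without the 4 arrays numbered 1), with Gsr, glutathione reductase, at 0.77 ± 0.12 (adjusted p = 0.000429) and the peroxiredoxin Prdx3 at 0.66 ± 0.08 (adjusted p = 4.91e-05). The p53 pathway list had 10 higher and 8 lower of 40 in HF (4 and 4 without the 4 arrays numbered 1), and 19 higher and 6 lower with MAZ1310. The difference was called for 9 members (22.5%, against 1.8% of all genes tested), each with the lower course in HF. Ddit4 is among them, and it also belongs to the ATF4 list, the glycolysis and hypoxia list and the list of mTORC1 brakes. With the replicate block 13 p53 pathway genes had a lower and 1 a higher course in HF. Called in HF were 36.5% of the endoplasmic reticulum genes, 35% of heat shock genes, 50% of the NRF2 list and 45% of the p53 list. The share over all genes tested was 15.6%.

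The 24 genes called in opposite directions include regulators of transcription and of oxidant defence. Klf11, a TGFb-inducible repressor, rose in HF from 212, 234 and 234 to 338, 305 and 314 and fell with MAZ1310 from 231, 219 and 289 to 173, 208 and 178. Amz1, a metallopeptidase, rose from 329, 355 and 351 to 537, 595 and 476 in HF and was lower at 6 h by 0.49 ± 0.13 with MAZ1310. Galnt12, which starts O-linked glycans, fell from 132, 104 and 127 to 92.1, 79.0 and 80.2 in HF and rose by 0.40 ± 0.11 with MAZ1310. The changes in HF were small, with sizes from 0.38 to 0.63 among the 9 named of the 10 largest differences. Of these 9, the HF call of Cat, the peroxide-degrading catalase, was lost without 3 h replicate 1 (-0.42, adjusted p = 0.0823), 3 h replicate 3 (-0.42, adjusted p = 0.0736) or 6 h replicate 2 (-0.39, adjusted p = 0.0844). That of Selenoh, a selenoprotein, was lost without 6 h replicate 2 (-0.38, adjusted p = 0.0622). The same happened for Cdr2 and Mnt without each of 4 single HF arrays and for Ggh and Zfp53 without each of 3, so 6 of the 9 HF calls were lost without single HF arrays.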

How the data were processed

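Expression was measured on Affymetrix 430 2.0 arrays, 12 in all, from RNA extracted with Trizol and RNeasy columns and labelled with biotin, per the labels' protocols. The authors deposited linear intensity values of 45101 probe sets, made with RMA per the submitters' processing notes, which give no version. How the arrays were scanned and scaled is not given in the sources used here.

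The 64 array control probe sets were left out. Of the rest, 34945 have a single symbol in the platform annotation, 932 have several and 9160 are unlisted there. For each of 18193 genes the brightest single-symbol probe set, by its mean on all 12 arrays, was kept. Of these genes 9010 have several, which can differ from the one kept, and not each such case among the named genes is given. The log2 of the intensity was fitted with limma 3.58.1 in R 4.3.3, with 1 mean for each of the 4 groups of 3 arrays and moderated variances, which leaves 8 residual degrees of freedom. The contrasts were 6 h against 3 h with HF, the same with MAZ1310, and their difference. A fold is on the RMA scale, which compresses the changes of dim genes, and the number of arrays limits the precision. The fit was tested on simulated data. Permutation tests used scipy 1.17.1.

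Within HF the deviations of same-numbered arrays from their group means correlated at 0.32, 0.50 and 0.47, and those of different numbers were below 0, so the numbers pair the HF arrays, which rests on the data since the labels do not say what a number stands for. With MAZ1310 the same-numbered arrays correlated at 0.25, 0.25 and 0.03, and those of different numbers at -0.28 to 0.09.

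Genes named are the 15 largest rises and falls of the HF course among called genes without overlap, the 10 largest differences of courses each way, the 10 largest among opposite courses, up to 5 called genes per list, and a fixed set of T cell and stress genes, with clone names left out. Exceptions are said to be such. The contrast, the 37 gene lists, the 6 marker lists and the named genes were chosen with earlier results of these data known. Promoters came from RefSeq's table, in which 14452 of the genes tested had one, and 6 motifs were searched in the 250 bases before the start.

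Alternatives were cyclic loess, dim genes left out, the mean of probe sets, probe sets without suffixes, the replicate block, the actin 3' to 5' difference as a covariate, both together, a variance trend with robust moderation, HF arrays alone, every probe set on its own, and leaving out each array or number.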

Additional observations from a re-analysis of the deposited data

Results flagged for a closer look

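The course from 3 h to 6 h differed between HF and MAZ1310 for 328 genes, by a limma test of the difference itself. The 45 of these that are named are listed here with that difference, the HF course minus the MAZ1310 course in log2. Groups of 3 arrays are too small for a search for outlying samples.

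The course ran higher in HF for enzymes and carriers of amino acids: Cth (2.91 ± 0.28), the cationic carrier Slc7a3 (1.66 ± 0.24), the glycine carrier Slc6a9 (1.22 ± 0.14) and the aminotransferase Gpt2 (0.86 ± 0.16). It also did so for the stress regulators Atf5 (1.91 ± 0.22), Trib3 (1.41 ± 0.33), Atf6 (0.61 ± 0.13) and Hsph1 (0.94 ± 0.16). Of the interferon response genes, Gbp7 (1.86 ± 0.27), Gbp8 (1.73 ± 0.29) and Irgm1 (1.44 ± 0.26) fell less in HF. The same holds for Mndal (1.54 ± 0.25), the urea carrier Slc14a1 (1.69 ± 0.23), the kinase Map3k8 (1.32 ± 0.21), Socs3 (0.92 ± 0.22) and Tbx21 (0.79 ± 0.16), each of which was lower at 6 h with both compounds. Metabolic and cell cycle genes with a higher course in HF were Cyb5r1 (1.55 ± 0.15), Hk2 (1.00 ± 0.22), Vegfa (0.84 ± 0.13), Ung (0.99 ± 0.20) and Wee1 (0.68 ± 0.15). Regulators of transcription were Zbed5 (1.60 ± 0.16), Tfap4 (0.84 ± 0.18), Smad3 (0.70 ± 0.17), Klf11 (0.88 ± 0.15) and the MYC antagonist Mnt (0.95 ± 0.17), and further genes were Amz1 (1.12 ± 0.18) and Cdr2 (0.91 ± 0.14).

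The course ran lower in HF for Ddit4 (-1.85 ± 0.16), the early response gene Ier3 (-1.62 ± 0.18), the mitotic spindle gene Psrc1 (-1.60 ± 0.29), the DNA damage-induced Ddias (-1.27 ± 0.24), the lysine-degrading enzyme Gcdh (-1.49 ± 0.19) and the endoplasmic reticulum isomerase Fkbp2 (-1.22 ± 0.24). Each of these rose with MAZ1310 and was not called in HF. Lymphocyte surface and lysosome genes were Gpr174 (-1.55 ± 0.31), Laptm5 (-1.33 ± 0.18), Cd52 (-1.24 ± 0.27) and Ccr7 (-1.22 ± 0.27). The others were Hspa4l (-0.86 ± 0.19), Cox7a2l (-0.62 ± 0.15), Cat (-0.97 ± 0.18), Selenoh (-0.97 ± 0.16), Galnt12 (-0.93 ± 0.15), Zfp53 (-0.89 ± 0.18) and the folate hydrolase Ggh (-0.87 ± 0.17). Among the named differences, those of Trib3 (adjusted p from 0.0573 to 0.110), Smad3 (0.0822 to 0.148), Socs3 and Hk2 lost their call without each of 10 single arrays. That of Cox7a2l did so without 9, those of Hspa4l and Tfap4 without 8, those of Ccr7 and Cd52 without 7, those of Atf6 and Wee1 without 6, that of Zfp53 without 5 and those of Ung and Fkbp2 without 4. Gpr174 and Tbx21 lost it without 3, Ggh without 2, and Cat and Ddias without 1 array. What lies behind these differences was not tested.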

How the results depend on the processing

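The count of genes changed in the HF course, 2838, stayed within 1.5 times under cyclic loess, the filter on dim genes, both other choices of probe set, the actin covariate, the variance trend and HF arrays alone. It was 1735 with the replicate block and actin covariate together, 4510 with the HF arrays fitted alone with the replicate block, and 4703 with every probe set on its own, which tests more features. Leaving out arrays gave 1386 to 3459, and 287 to 381 for the genes that moved 2-fold. With the replicate block alone 3457 genes were called, among them the whole 2838, and no named call was lost. The difference of courses, 328 genes, was 680 with the replicate block, 819 with the block and actin covariate, and 38 to 602 leaving out arrays. The lowest counts, 38, 44 and 49, were those without the 4 arrays numbered 2, 1 and 3. Without 1 array it was 602 (MAZ1310 3 h replicate 1), 141 and 172 (MAZ1310 6 h replicates 2 and 3), 129 and 180 (HF 3 h replicates 1 and 3) and 136 and 170 (HF 6 h replicates 1 and 2). The MAZ1310 course, 3595 genes, was 1883 with the block and actin covariate and 2121 to 3592 leaving out arrays. Of 221 named genes called in the HF course, 187 kept the call with the block and actin covariate, 214 under cyclic loess and 165 without the arrays numbered 1. Of the 45 named differences, 26 kept the call without HF 3 h replicate 1, and 13 to 18 without a replicate number. With probe sets that carry a suffix left out, another probe set stands for some genes. Ak4 then turned to -0.156 and Tsc22d3 to 0.0596 in the HF course, and Laptm5 to 0.0386 in the difference. These are disagreements between probe sets of a gene, and a further Ak4 probe set without a suffix rose by 1.75. Why the probe sets disagree was not tested.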

Other observations

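Further gene lists were counted in the same way in HF. Of 48 proteasome genes 8 were higher and 3 lower, a share called of 22.9%, against 15.6% of all genes tested. The 3 that fell are the immunoproteasome subunits Psmb8, Psmb9 (-0.71 ± 0.14, adjusted p = 0.00241) and Psmb10, while the assembly chaperones Psmg2 (0.90 ± 0.14, adjusted p = 0.000259) and Psmg1 (0.76 ± 0.11, adjusted p = 0.000155) rose. With MAZ1310 24 were higher and 3 lower. The HF count was 3 higher and 3 lower without HF 3 h replicate 2, 6 h replicate 1 or 6 h replicate 3, and 13 and 4 without MAZ1310 3 h replicate 3. Of 54 translation factors 7 were higher and 0 lower by limma, a share called that lies below the 15.6% of all genes tested. At an unadjusted p under 0.05 there were 13 of the 54, against 4638 of the 18193 genes tested, and 12 were higher without MAZ1310 3 h replicate 3. They include Eif2b3 (0.92 ± 0.12, adjusted p = 5.43e-05) and Eif2b4 (0.53 ± 0.10, adjusted p = 0.002), subunits of eIF2B, the exchange factor that phosphorylated eIF2 blocks.

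Of 33 mTORC1 brakes and eIF2 kinases 5 were higher and 6 lower, a share called of 33.3%, against 15.6% of all genes tested. The pseudokinase Trib1 fell by 1.57 ± 0.14 (adjusted p = 2.08e-06) and the sestrin Sesn3 by 1.38 ± 0.14 (adjusted p = 9.72e-06), both also with MAZ1310. Of 51 autophagy and lysosome genes 3 were higher and 8 lower, 1 and 6 without HF 6 h replicate 3. The share called was 21.6%, against 15.6% of all genes tested. Cathepsin S, or Ctss, changed by -0.79 ± 0.13 (adjusted p = 0.000423) and the saposin precursor Psap by -0.72 ± 0.09 (adjusted p = 3.59e-05). Of 39 sterol and fatty acid synthesis genes 3 were higher and 8 lower, 2 and 5 without HF 3 h replicate 1 or HF 6 h replicate 3, and 1 and 6 without HF 6 h replicate 2. In the main fit 28.2% of this list was called. The elongase Elovl6 fell by 1.21 ± 0.15 (adjusted p = 4.42e-05), while acetyl-CoA carboxylase, Acaca, rose by 0.82 ± 0.15 (adjusted p = 0.000956). In the BCL2 family the proapoptotic members went both ways, with Pmaip1, or NOXA, lower (-0.95 ± 0.19, adjusted p = 0.00231) and Bbc3, or PUMA, higher (0.72 ± 0.11, adjusted p = 0.000309). The lymphoid factor Ikzf1 fell by 0.96 ± 0.11 (adjusted p = 2.17e-05) and the DNA damage sensor Ddb2 by 0.90 ± 0.09 (adjusted p = 4.51e-06).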
